A study of Mus musculus with 10 samples.

Results

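The change of the genotype effect between ages in the pituitary intermediate lobe (IL) was measured as a difference of differences, the p27-/- minus WT difference at 7 months less the p27-/- minus WT difference at 2 months. This quantity, called the interaction here, was computed for 13624 autosomal genes whose mean normalised expression over the 10 libraries was at least 10. In all, 16556 of the 39021 gene identifiers in the deposited table passed this minimum. Of these, 529 were on X, 4 on Y and 15 were mitochondrially encoded. A further 2384 had no chromosome in the annotation used and were not counted as autosomal, wherever they lie. Shares of all autosomal genes refer to the 13624. Total RNA from dissected mouse IL was sequenced in 3 WT and 2 p27-/- libraries at 2 months of age and in 2 WT and 3 p27-/- libraries at 7 months. p27-/- mice carry a constitutive null allele of *Cdkn1b*, so every cell type of the lobe carries it at both ages. No other allele or agent differed between the groups by the labels, and the study used animals of both sexes. Values were log2 normalised expression, so a difference of 1 is a doubling, and a gene's interaction of 1 means that its p27-/- to WT ratio was 2-fold larger at 7 months than at 2 months.

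p27 binds and inhibits cyclin-dependent kinases and holds cells in a non-dividing state. The IL is made up mostly of melanotrophs, which produce the hormone precursor *Pomc* and cleave it to melanocyte-stimulating hormone, with a small compartment of Sox2-positive stem cells along the cleft that separates it from the anterior lobe. Mice without p27 develop tumours of the IL as they age, and a genotype effect that grows, shrinks or turns between a young and an older age describes which parts of the transcriptome differed more or less over that interval.

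*Cdkn1b* itself (chr6:134920401-134925525, GRCm38.p6) read 9.33, 9.08 and 8.96 in the WT IL and 7.91 and 8.06 in the p27-/- IL at 2 months. At 7 months *Cdkn1b* read 8.57 and 8.75 against 8.43, 8.34 and 8.21. The genotypes did not overlap at either age, although the transcript remained detectable in every p27-/- library, and its genotype difference was -1.13 at 2 months (limma adjusted p = 0.0155) and -0.33 at 7 months (limma adjusted p = 0.156). *Pomc* read 16.53, 17.09 and 16.78 in the WT IL and 15.89 and 16.17 in the p27-/- IL at 2 months. At 7 months *Pomc* read 16.25 and 16.12 against 15.45, 15.63 and 16.11, and *Pax7*, the factor that sets melanotroph identity, was expressed in all 10 libraries. Libraries differed in more than genotype and age. *Xist*, transcribed from the inactive X chromosome of females, was above the Y-linked *Ddx3y* in 0 of 3 WT and 1 of 2 p27-/- libraries at 2 months and in 2 of 2 WT and 1 of 3 p27-/- libraries at 7 months, so in WT the ages and the sexes cannot be told apart and no interaction could be computed within one sex. The study's animal record lists both sexes for the older WT group, which 1 library goes against. Mitochondrially encoded genes took 24.2 to 41.1% of the summed expression in WT and 28.1 to 31.5% in p27-/- at 2 months, and 19.3 to 28.0% in WT and 38.7 to 48.0% in p27-/- at 7 months. The rank correlation over genes between a library's deviations and exonic GC content was positive in all WT libraries, up to 0.577 at 7 months, and negative in all p27-/- libraries, down to -0.586 at 7 months. For these reasons the leading interactions are also given after removing a smooth GC trend from every library and with log2 *Xist* as a term in the fit.

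No autosomal gene had an interaction past an adjusted p of 0.05 (0% of 13624, limma), and the smallest adjusted p was 0.0658. At an unadjusted p under 0.05 there were 2190 genes (16.1%), of which 1121 were positive (8.23%) and 1069 negative (7.85%). The median standard error of an interaction was 0.2923. In simulated data of this size, with 200 of 16556 genes changed, none of the added interactions of 1 log2 unit were recovered at an adjusted p under 0.05. Of those of 2 units 83% were recovered, and of those of 3 units 98%. The adjusted cut-off depends on how many genes change, so these shares need not hold for the data themselves. Without single libraries the count past the adjusted threshold lay between 0 and 32, highest when p27-/- replicate 3 of the older group was left out. The genotype difference taken at each age called 29 genes at 2 months (0.213%), of which 4 were higher (0.0294%) and 25 lower (0.183%) in p27-/-. It called 2605 at 7 months (19.1%), of which 1164 were higher (8.54%) and 1441 lower (10.6%). At an unadjusted p under 0.05 it took 1467 genes at 2 months (10.8%) and 4713 at 7 months (34.6%). The count at 7 months dropped to 113 without WT replicate 1 of that age, and the one at 2 months to 1 without p27-/- replicate 1. The gap between these counts is not a test of the change, which the interaction addresses directly.

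Genes with an unadjusted interaction p under 0.05 were sorted by their 2 genotype differences, as a description. For 1704 genes the difference grew, meaning that it was past an unadjusted p of 0.05 at 7 months. At 2 months it was either not past that p, whatever its sign, or smaller and of the same sign. Of these genes 794 had a positive and 910 a negative interaction. For 233 genes the difference was instead the larger at 2 months and shrank, with 176 positive and 57 negative interactions. For 52 genes it turned sign, 37 of them from below to above WT and 15 from above to below, and for 201 genes neither age passed. The growing genes with positive interactions had a median exonic GC content of 43.43% and those with negative interactions 55.22%, against 49.4% over all autosomal genes tested. After the GC correction 607 positive and 743 negative genes were in the growing class, and with *Xist* in the fit 449 positive and 489 negative. When libraries were scaled to equal totals without mitochondrially encoded genes, the median of all genes moved to -0.159 and the growing class held 385 positive and 1778 negative genes, so the balance of directions depended on the scaling. The interaction is also the change from 2 to 7 months in p27-/- less that in WT. Opposite median changes among genes chosen by it therefore follow in part from that choice. Over all autosomal genes the median change was -0.03 in WT and -0.02 in p27-/-, and the change between ages within a genotype was not tested. Among the 1121 positive genes the median change from 2 to 7 months was -0.46 in WT and 0.36 in p27-/-, and the larger change was in WT for 678 of them (60.5%). Among the 1069 negative genes the medians were 0.48 in WT and -0.31 in p27-/-, with the larger change in WT for 733 (68.6%), against 58.8% of all autosomal genes.

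**Figure D1:**
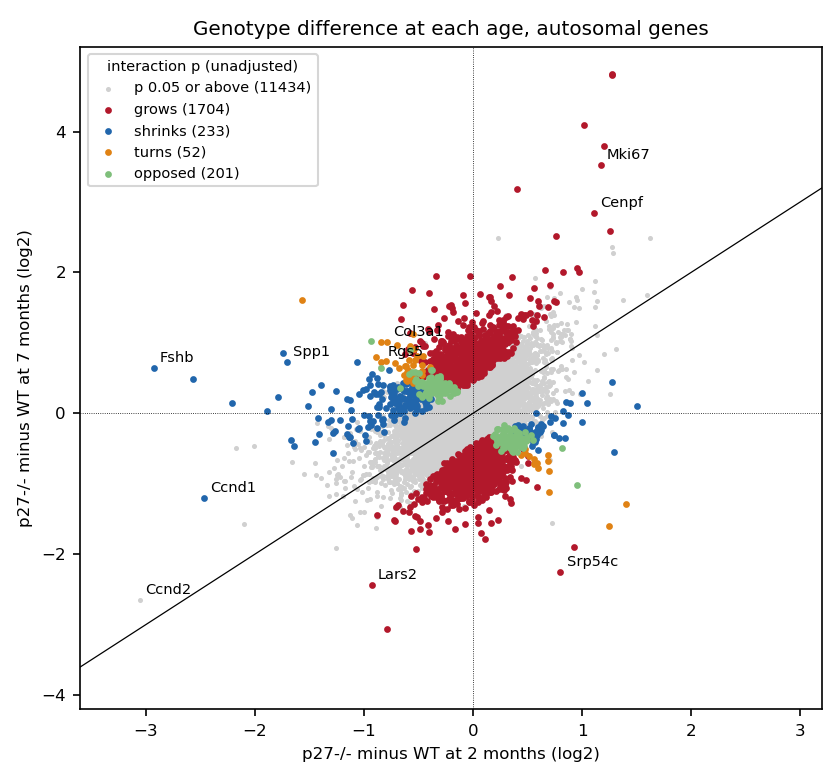
The p27-/- minus WT difference at 2 months (x axis, log2) is plotted against that at 7 months (y axis, log2) for 13624 autosomal genes, coloured by class where the unadjusted interaction p was under 0.05. Points on the diagonal have the same difference at both ages, and the 1704 growing genes form the vertical cloud above and below it, with *Mki67* and *Cenpf* near the top and *Srp54c* and *Lars2* near the bottom.

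Genes of mitosis had the largest positive median genotype difference of the lists at both ages. Their products build the spindle and kinetochore, condense and decatenate chromosomes and drive entry into mitosis. Of 30 genes listed 24 were tested, the median genotype difference of the list was 0.66 at 2 months and 1.10 at 7 months, and the median interaction was 0.51, with positive interactions in 22 of 24, beside a median interaction of 0.020 over all autosomal genes. At 7 months 20 of the 24 were higher in p27-/- at a limma adjusted p under 0.05 (8.54% of all autosomal genes), whereas none passed at 2 months, when 17 passed an unadjusted p of 0.05 (3.41%). The interaction passed an unadjusted p of 0.05 for 6 genes, all positive (25% of the list against 8.23% of all autosomal genes). The summed level of all 30 genes was 1516 to 1665 in WT and 2529 to 3031 in p27-/- at 2 months, and 1004 to 1284 in WT and 3389 to 5059 in p27-/- at 7 months. The genotypes were apart at both ages and further apart at the older one, where the WT sums were also the lowest of the series.

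*Mki67* (chr7:135689784-135716450, GRCm38.p6), which encodes the proliferation antigen Ki-67, read 6.99, 7.02 and 7.08 in the WT IL and 7.88 and 8.53 in the p27-/- IL at 2 months. At 7 months *Mki67* read 5.66 and 5.75 against 8.89, 9.85 and 8.95. Its genotype difference was 1.17 at 2 months (limma adjusted p = 0.0852) and 3.52 at 7 months (limma adjusted p = 1.59e-05), an interaction of 2.35 ± 0.37 (SE), unadjusted p = 1.24e-05, adjusted p = 0.0658. Between the ages the mean differed by -1.33 in WT and by 1.02 in p27-/-, and the interaction was 2.22 after the GC correction and 2.30 with *Xist* in the fit. *Cenpf* (chr1:189640606-189688107), a kinetochore protein, read 6.05, 6.08 and 5.87 in the WT IL and 6.86 and 7.36 in the p27-/- IL at 2 months. At 7 months *Cenpf* read 5.31 and 5.34 against 7.71, 8.73 and 8.04. The pattern was the same as that of *Mki67*, with no overlap of the genotypes at either age and an interaction of 1.73 ± 0.36 (SE), unadjusted p = 0.000263, adjusted p = 0.0952. *Smc4*, a condensin subunit, had differences of 0.82 at 2 months and 2.01 at 7 months. Its interaction was 1.19 ± 0.29 (SE), unadjusted p = 0.00112, adjusted p = 0.112. *Top2a* (topoisomerase II alpha) had differences of 1.25 at 2 months and 2.59 at 7 months and an interaction of 1.34 ± 0.46 (SE).

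The promoters of the 3 mitosis genes with the largest interactions are shown because cell-cycle genes of this class commonly carry CCAAT boxes and a cell cycle homology region (TTTGAA). They are RefSeq sequences on GRCm38.p6, from 250 bases before to 50 after the annotated start, on the minus strand of chr7:135716330-135716629, chr1:189688037-189688336 and chr11:99024140-99024439. Capitals mark TTTGAA or CCAAT on either strand.
Mki67: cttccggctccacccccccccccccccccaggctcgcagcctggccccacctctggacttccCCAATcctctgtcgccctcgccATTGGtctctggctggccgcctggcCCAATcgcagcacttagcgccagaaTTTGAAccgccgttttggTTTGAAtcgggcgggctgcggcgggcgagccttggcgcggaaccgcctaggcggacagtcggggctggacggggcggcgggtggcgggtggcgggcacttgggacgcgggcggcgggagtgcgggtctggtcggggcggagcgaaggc
Cenpf: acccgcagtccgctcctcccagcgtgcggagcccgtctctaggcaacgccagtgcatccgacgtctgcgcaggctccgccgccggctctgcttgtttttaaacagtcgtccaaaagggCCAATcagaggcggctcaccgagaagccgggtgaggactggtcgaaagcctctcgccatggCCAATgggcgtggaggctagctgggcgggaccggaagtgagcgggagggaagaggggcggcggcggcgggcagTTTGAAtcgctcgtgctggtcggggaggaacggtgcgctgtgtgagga
Top2a: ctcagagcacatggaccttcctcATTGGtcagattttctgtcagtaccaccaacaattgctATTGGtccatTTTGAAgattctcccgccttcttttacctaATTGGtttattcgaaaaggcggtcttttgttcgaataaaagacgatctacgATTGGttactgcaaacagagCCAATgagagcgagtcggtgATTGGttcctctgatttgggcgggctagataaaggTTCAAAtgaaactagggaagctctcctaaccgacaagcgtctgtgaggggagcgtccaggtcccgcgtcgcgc
TTTGAA was present in 14 of the 19 mitosis promoters found in the table (73.7%) and in 18.1% of all 27025 promoters of this length. CCAAT was present in 16 of 19 (84.2%) against 37.9%, and both together in 13 of 19 (68.4%) against 7.12%. A match describes the letters in the window and is no evidence of binding.

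Genes of DNA replication, the licensing, polymerase and nucleotide supply factors of S phase, had smaller values than those of mitosis. The median difference of the 24 tested was 0.28 at 2 months and 0.40 at 7 months, and the median interaction was 0.14, with 8 higher in p27-/- at 7 months by limma adjusted p (8.54% of all autosomal genes). At an unadjusted p under 0.05 there were 3 positive interactions, 12.5% of the list and near the 8.23% of all autosomal genes. *Ccne2* (cyclin E2) had differences of 0.45 at 2 months and 1.38 at 7 months, and *Pcna* (the sliding clamp of DNA polymerase) of -0.08 at 2 months and 0.86 at 7 months, with interactions of 0.93 and 0.94. After the GC correction *Ccne2* no longer passed (unadjusted p = 0.176). *Pcna* kept an unadjusted p of 0.00169 with *Xist* in the fit, where *Ccne2* had 0.0545.

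The kinases, cyclins and inhibitors of the G1 phase did not share a direction. Over 19 tested genes the median difference was 0.07 at 2 months and -0.01 at 7 months, and the median interaction was 0.30. At an unadjusted p under 0.05 there were 3 positive and 1 negative interaction (21.1% of the list against 16.1% of all autosomal genes). A list's median interaction is taken over its genes, and here its sign is not that of the difference between the list's medians at the 2 ages. *Ccnd2* (cyclin D2) read 12.26, 11.93 and 11.71 in the WT IL and 8.91 and 8.91 in the p27-/- IL at 2 months. At 7 months *Ccnd2* read 11.47 and 11.54 against 8.88, 9.23 and 8.46. It was lower in p27-/- at both ages, with differences of -3.06 and -2.65 (limma adjusted p = 5.36e-06 and 1.86e-05). Its interaction was 0.40 ± 0.29 (SE), unadjusted p = 0.189, adjusted p = 0.514, and it turned to -0.09 with *Xist* in the fit. *Ccnd1* (cyclin D1) read 9.71, 9.62 and 9.13 in the WT IL and 6.74 and 7.30 in the p27-/- IL at 2 months. At 7 months *Ccnd1* read 9.02 and 8.40 against 7.43, 8.02 and 7.05. It was lower in p27-/- at both ages, with differences of -2.47 at 2 months and -1.21 at 7 months (limma adjusted p = 0.00148 and 0.0105), and its interaction was 1.26 ± 0.39 (SE), unadjusted p = 0.00595, adjusted p = 0.153. *Cdkn1b* itself was in the shrinking class, with an interaction of 0.80 ± 0.22 (SE), unadjusted p = 0.00284, adjusted p = 0.131, while *Cdk4*, the kinase that D cyclins activate, had differences of 0.10 at 2 months and -0.76 at 7 months and an interaction of -0.85 ± 0.22 (SE). *Cdk4* was lower in p27-/- at 7 months (limma adjusted p = 0.00661). Among 12 tested targets of p53, the median difference was -0.07 at 2 months and -0.03 at 7 months, and the median interaction was 0.18. At an unadjusted p under 0.05 there were 2 interactions (16.7% of the list), near the 16.1% of all autosomal genes. They were those of *Ccng1* (cyclin G1), with differences of -0.05 at 2 months and 1.05 at 7 months, and *Tnfrsf10b* (a death receptor), with -0.25 at 2 months and 0.53 at 7 months. *Btg2*, an antiproliferative gene and the next by p, had 0.07 at 2 months and -0.56 at 7 months and an unadjusted interaction p of 0.0642.

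At equal totals without mitochondrially encoded genes, where the median of all genes was -0.159, the list medians of DNA replication (-0.04), HIF-1 targets (-0.09), interferon response (-0.06), the Notch pathway (-0.16) and mitochondrial gene expression (-0.11) turned negative but, the Notch pathway apart, stayed above that shift. With *Xist* in the fit those of the stem cell list and the Notch pathway turned to -0.12 and -0.22, and those of cytoskeleton and adhesion and of the oestrogen-responsive genes to 0.20 and 0.03.

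**Figure D2:**
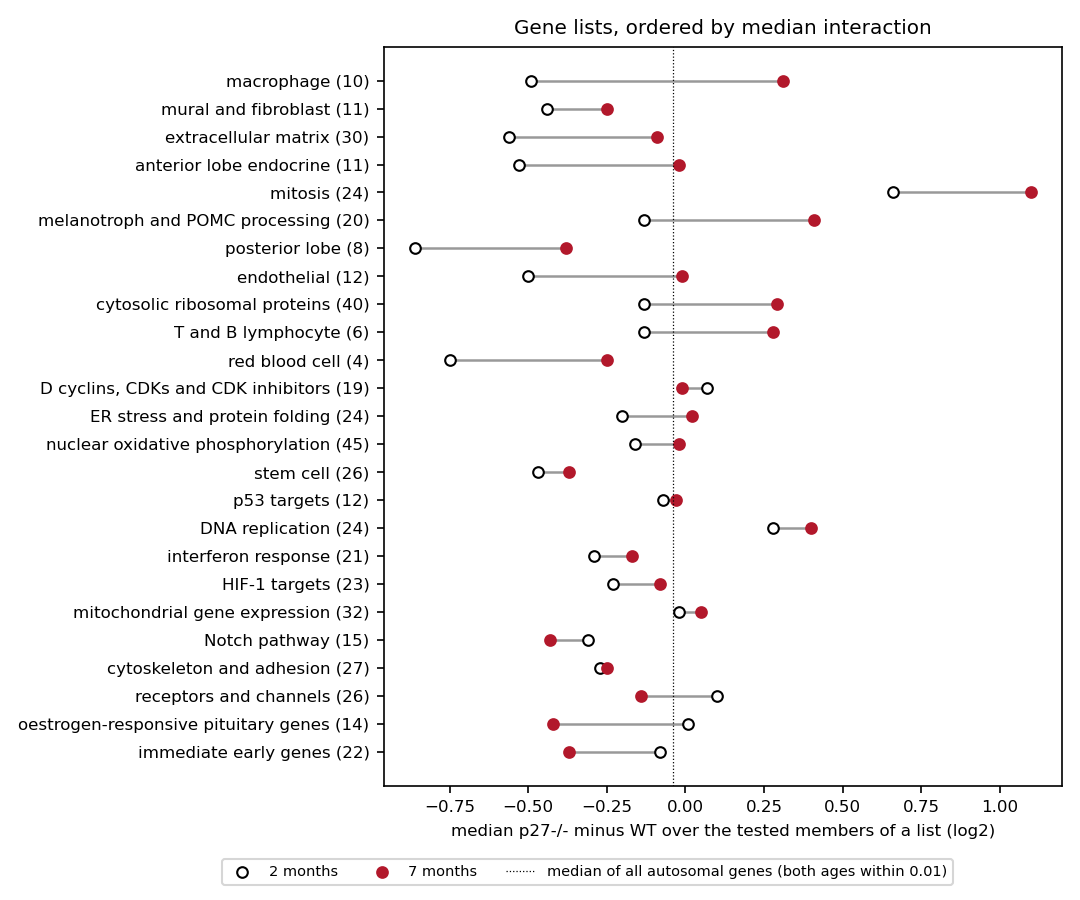
Median p27-/- minus WT difference (x axis, log2) of each gene list at 2 months (open circles) and 7 months (filled circles), with the number of tested genes in parentheses and lists ordered by their median interaction. Mitosis lies furthest to the right at both ages, whereas the macrophage list lay at -0.49 at 2 months and 0.31 at 7 months.

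The 5 genes with the smallest interaction p at a mean expression of at least 100 were *Mki67*, *Eif5b*, *Rgs5*, *Peg10* and *Med24*. *Eif5b* (chr1:37998010-38055579), the factor that joins the ribosomal subunits at the start codon, read 11.01, 11.20 and 11.43 in the WT IL and 11.18 and 11.09 in the p27-/- IL at 2 months. At 7 months *Eif5b* read 10.54 and 10.75 against 12.10, 12.14 and 11.78. The genotypes overlapped at 2 months and were apart at 7 months, as were 49% of all autosomal genes (31.4% at 2 months), with an interaction of 1.44 ± 0.24 (SE), unadjusted p = 3.21e-05, adjusted p = 0.0658. *Peg10* (chr6:4747306-4760517), an imprinted gene derived from a retrotransposon, read 8.92, 8.67 and 8.91 in the WT IL and 8.66 and 8.47 in the p27-/- IL at 2 months. At 7 months *Peg10* read 8.30 and 7.73 against 9.64, 9.09 and 9.38, with an interaction of 1.63 ± 0.28 (SE), unadjusted p = 3.64e-05, adjusted p = 0.0658. Both were higher in p27-/- at 7 months (limma adjusted p = 0.000581 and 0.00134). *Med24* (chr11:98704597-98729419), a subunit of the Mediator complex, read 7.25, 7.47 and 6.79 in the WT IL and 7.11 and 7.37 in the p27-/- IL at 2 months. At 7 months *Med24* read 8.26 and 7.82 against 6.22, 6.53 and 6.28. It was lower in p27-/- at 7 months (limma adjusted p = 0.000653), and its interaction of -1.77 ± 0.31 (SE), unadjusted p = 4.8e-05, adjusted p = 0.0687 had a part from both genotypes, with means that differed by 0.87 in WT and -0.90 in p27-/- from 2 to 7 months. *Rgs5* (chr1:169655501-169695813), a regulator of G protein signalling found in pericytes, read 9.41, 9.93 and 9.43 in the WT IL and 8.68 and 8.81 in the p27-/- IL at 2 months. At 7 months *Rgs5* read 9.19 and 9.03 against 10.12, 9.60 and 9.79. It was below WT at 2 months and above WT at 7 months, with an interaction of 1.57 ± 0.27 (SE), unadjusted p = 3.48e-05, adjusted p = 0.0658. The interactions of *Eif5b*, *Rgs5*, *Peg10* and *Med24* kept an unadjusted p of at most 0.00112 after the GC correction and at most 0.00241 with *Xist* in the fit. In all, 33 autosomal genes had an adjusted p under 0.1, of which 26 were positive and 7 negative, and all 33 kept their sign and an unadjusted p under 0.05 after the GC correction and with *Xist*, as did 32 with both. These genes were chosen by their p in the same libraries, so the refits are not independent of that choice. *Xist* varied widely only within the p27-/- groups, so its term cannot separate sex from age in WT.

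The largest growing differences outside these genes were in both directions. *Luzp2* (leucine zipper protein 2) had differences of -0.56 at 2 months and 1.75 at 7 months, the annotated microRNA gene *mmu-mir-703* of -0.41 at 2 months and 1.71 at 7 months, and *Plagl1*, an imprinted zinc finger transcription factor, of -0.36 at 2 months and 1.49 at 7 months. Their interactions were 2.31, 2.12 and 1.84, and each was smaller under another setting. With *Xist* in the fit that of *Luzp2* was 0.91 (unadjusted p = 0.241) and that of *Plagl1* 1.11 (unadjusted p = 0.0454), and after the GC correction that of *mmu-mir-703* was 0.76 (unadjusted p = 0.0491). *Srp54c* read 7.04, 5.99 and 6.74 in the WT IL and 7.41 and 7.37 in the p27-/- IL at 2 months. At 7 months *Srp54c* read 7.62 and 7.23 against 4.59, 6.52 and 4.41. Its interaction was -3.06 ± 0.67 (SE), unadjusted p = 0.00037, adjusted p = 0.106, but this gene is one of several near-identical copies of a signal recognition particle subunit, among which reads could be split, so the value is uncertain. *Gigyf1*, which takes part in translational repression, had differences of 0.23 at 2 months and -1.52 at 7 months, and *Psd*, an exchange factor for the small GTPase Arf6, of 0.16 at 2 months and -1.56 at 7 months. Both were lower in p27-/- at 7 months (limma adjusted p = 0.0087 and 0.00268). Larger values occurred among predicted gene models that the naming rule left out. *Gm10801* and *Gm10800*, chosen after their values were seen, had interactions of 3.55 and 3.53, and reads of such near-identical models are also uncertain.

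Most genes of the shrinking class had positive interactions, 176 of 233, and lay below WT at 2 months. *Spp1* (osteopontin) read 7.51, 7.45 and 7.12 in the WT IL and 6.03 and 5.27 in the p27-/- IL at 2 months. At 7 months *Spp1* read 6.64 and 6.62 against 6.78, 8.32 and 6.98. The p27-/- libraries were the lowest at 2 months and the genotypes did not overlap at either age, with an interaction of 2.44 ± 0.50 (SE), unadjusted p = 0.000227, adjusted p = 0.0952, which was 2.24 after the GC correction and 1.56 with *Xist* in the fit. *Slc4a4* (a sodium bicarbonate cotransporter) had differences of -1.88 at 2 months and 0.03 at 7 months, *Adamts1* (a secreted protease that cleaves proteoglycans) of -1.26 at 2 months and 0.31 at 7 months, and *AF064781* of -0.93 at 2 months and 0.55 at 7 months, with interactions of 1.91, 1.57 and 1.48. None of these 4 passed an adjusted p of 0.05 at either age by limma. *Slc4a4* read 7.63, 9.53 and 7.71 in the WT IL and 6.49 and 6.32 in the p27-/- IL at 2 months, so WT replicate 2 enlarged its mean difference. That library was also the highest WT one at 2 months for *AF064781* (6.62, 7.53 and 6.35). In the other direction 3 genes met the rule. *Nespas*, which is antisense to *Nesp* at the *Gnas* locus and cannot be told from it without strand, had 0.78 at 2 months and -0.35 at 7 months, *Tmem150c* had 0.52 at 2 months and -0.26 at 7 months and *Plekha5* had 0.38 at 2 months and -0.26 at 7 months.

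Among the genes that turned sign, *Fzd1*, a receptor for Wnt proteins, read 7.64, 8.04 and 7.64 in the WT IL and 6.90 and 6.88 in the p27-/- IL at 2 months. At 7 months *Fzd1* read 6.0 and 6.48 against 7.30, 7.27 and 6.57. Between the ages its mean differed by -1.54 in WT and by 0.16 in p27-/-, and the interaction was 1.69 ± 0.34 (SE), unadjusted p = 0.000158, adjusted p = 0.0824. *Ttyh1*, a chloride channel family member of neural progenitors, had differences of -0.55 at 2 months and 1.13 at 7 months, *Cyp1b1* (a cytochrome P450) of -0.85 at 2 months and 1.01 at 7 months, and *Serpine2* (a serine protease inhibitor) of -0.70 at 2 months and 0.97 at 7 months. All 4 were higher in p27-/- at 7 months (limma adjusted p = 0.0308, 0.00507, 0.04 and 0.0373), while none passed at 2 months. In the opposite direction, *Elavl3*, a neuronal RNA-binding protein, read 6.76, 6.49 and 5.88 in the WT IL and 7.26 and 6.87 in the p27-/- IL at 2 months. At 7 months *Elavl3* read 7.38 and 7.45 against 6.94, 6.95 and 6.57. It was above WT at 2 months and below WT at 7 months without overlap, an interaction of -1.28 ± 0.34 (SE), unadjusted p = 0.002, adjusted p = 0.124. *Phxr4* had 0.51 at 2 months and -0.61 at 7 months and *Ung* (uracil DNA glycosylase) 0.48 at 2 months and -0.51 at 7 months.

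**Figure D3:**
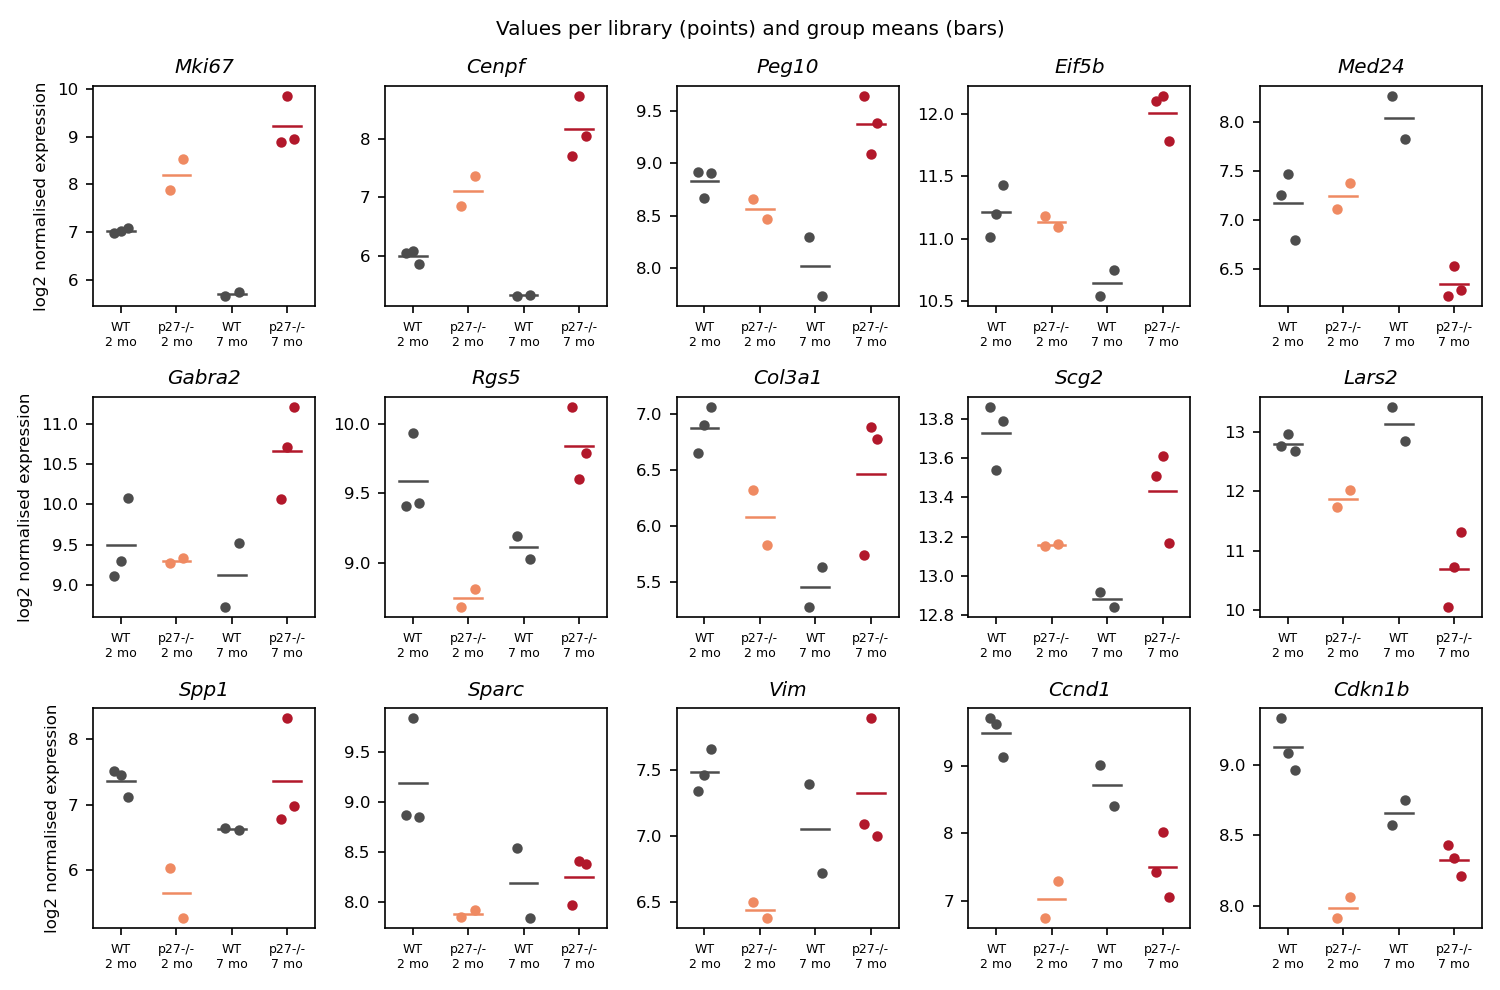
Log2 normalised expression (y axis, own scale per gene) of 15 named genes in each of 10 libraries (points), with group means as bars, for WT and p27-/- at 2 and 7 months (mo). *Mki67* and *Cenpf* were apart at 2 months and further apart at 7 months, *Rgs5*, *Col3a1* and *Scg2* lay below WT at 2 months and above WT at 7 months on average, and *Ccnd1* stayed below WT at both ages.

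Extracellular matrix genes, which encode collagens, laminins and the proteins that organise them, lay mostly below WT at 2 months and nearer to WT at 7 months. At 2 months 17 of 30 tested genes were lower in p27-/- at an unadjusted p under 0.05 (7.36% of all autosomal genes). The median difference of the list was -0.56 at 2 months and -0.09 at 7 months, and the median interaction was 0.58, with positive interactions in 23 of 30. At an unadjusted p under 0.05 there were 10 positive interactions (33.3% of the list) and 0 negative ones, against 8.23% and 7.85% of all autosomal genes. By limma adjusted p, 2 were lower at 2 months (0.183% of all autosomal genes). At 7 months 4 were lower (10.6%) and 1 was higher (8.54%), which is near or under the share of all autosomal genes. *Col3a1* (a fibrillar collagen) read 6.65, 6.90 and 7.06 in the WT IL and 6.32 and 5.83 in the p27-/- IL at 2 months. At 7 months *Col3a1* read 5.27 and 5.63 against 5.74, 6.88 and 6.77. It was higher in p27-/- at 7 months (limma adjusted p = 0.0312), with an interaction of 1.80 ± 0.42 (SE), unadjusted p = 0.000721, adjusted p = 0.112, and between the ages its mean differed by -1.42 in WT and by 0.39 in p27-/-. *Sparc* (a matricellular protein that binds collagen) read 8.87, 9.84 and 8.85 in the WT IL and 7.85 and 7.92 in the p27-/- IL at 2 months. At 7 months *Sparc* read 8.54 and 7.84 against 7.97, 8.41 and 8.38, with the interaction of 1.37 ± 0.39 (SE), unadjusted p = 0.00317, adjusted p = 0.134. The genotypes were apart at 2 months and overlapped at 7 months. *Adamts1*, described above, was the third of this list. The list's summed level was 9231 to 11660 in WT and 5659 to 5707 in p27-/- at 2 months, and 7629 to 8020 and 5487 to 6556 at 7 months, so the sum, which abundant members dominate, stayed lower in p27-/- at both ages.

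Markers of other cell types had positive median interactions as well. Macrophage markers had a median difference of -0.49 at 2 months and 0.31 at 7 months, and the median interaction was 0.78, with all 10 tested interactions positive. An unadjusted p of 0.05 was passed by 4 of them (40% of the list against 16.1% of all autosomal genes). None of their genotype differences passed an adjusted p of 0.05 at either age. *C1qb* (a complement component) had differences of -0.64 at 2 months and 0.42 at 7 months, and *Ptprc* (the leukocyte antigen CD45) of -0.41 at 2 months and 0.38 at 7 months. The summed level of 16 macrophage genes was 904.8 to 1049 in WT and 679.1 to 704.6 in p27-/- at 2 months, and 830.7 to 838.6 and 768.2 to 1236 at 7 months. Endothelial markers had a median difference of -0.50 at 2 months and -0.01 at 7 months, and the median interaction was 0.42. An unadjusted p of 0.05 was passed by 3 of 12 interactions (25% of the list against 16.1% of all autosomal genes). They were those of *Flt1* (a VEGF receptor; -1.01 at 2 months and 0.33 at 7 months), *Emcn* (endomucin; -0.47 at 2 months and 0.59 at 7 months) and *Tek* (the angiopoietin receptor; -0.72 at 2 months and 0.24 at 7 months). *Flt1* read 6.15, 7.26 and 6.34 in the WT IL at 2 months, so WT replicate 2 enlarged its mean difference. The summed level of the endothelial markers was 431 to 641.1 in WT and 326 to 340.6 in p27-/- at 2 months, and 305.2 to 432.6 and 315 to 435.3 at 7 months. Mural and fibroblast markers had a median difference of -0.44 at 2 months and -0.25 at 7 months, and the median interaction was 0.62, led by *Rgs5*, the potassium channel gene *Kcnj8* (-0.34 at 2 months and 0.75 at 7 months) and the receptor gene *Pdgfra* (-1.11 at 2 months and -0.42 at 7 months). Their summed level was 1770 to 2474 in WT and 1258 to 1274 in p27-/- at 2 months, and 1384 to 1560 and 1742 to 1820 at 7 months. This sum gives most weight to abundant members such as *Rgs5*, whose mean over the libraries was 708.5. At 7 months 5 of the 11 tested genes lay above WT and 6 below. In whole tissue, fewer cells of a type and less RNA per cell cannot be told apart, and the part of these cell types in the matrix values was not tested.

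Neighbouring lobes were also represented. Posterior lobe markers had a median difference of -0.86 at 2 months and -0.38 at 7 months, and the median interaction was 0.46 over 8 genes, with a summed level of 3638 to 7146 in WT and 2216 to 2588 in p27-/- at 2 months and 2725 to 3288 and 2035 to 3353 at 7 months. *Nkx2-1*, a transcription factor of pituicytes, had -1.48 at 2 months and 0.30 at 7 months, *Col25a1* -2.17 at 2 months and -0.49 at 7 months, and the myelin gene *Mbp* 0.05 at 2 months and -1.03 at 7 months. *Mbp* was lower in p27-/- at 7 months (limma adjusted p = 0.0136). At 2 months WT replicate 2 was the highest WT library for *Nkx2-1* (4.02, 5.55 and 3.74) and *Col25a1* (7.88, 9.91 and 7.58), which enlarged their mean differences. Anterior lobe hormone genes and their regulators had a median difference of -0.53 at 2 months and -0.02 at 7 months, and the median interaction was 0.52 over 11 genes, and their summed level varied within every group, from 3365 to 31390 in p27-/- at 7 months. *Fshb*, the beta subunit of follicle-stimulating hormone, read 11.32, 9.55 and 11.26 in the WT IL and 9.39 and 6.18 in the p27-/- IL at 2 months. At 7 months *Fshb* read 6.86 and 6.78 against 6.87, 9.42 and 6.10. Its differences were -2.93 at 2 months and 0.64 at 7 months, and its interaction of 3.57 ± 1.24 (SE), unadjusted p = 0.0116, adjusted p = 0.184 was 0.25 with *Xist* in the fit (unadjusted p = 0.834). *Tshb* (the beta subunit of thyroid-stimulating hormone) had -0.47 at 2 months and 0.12 at 7 months, and *Pou1f1* (Pit-1) -0.53 at 2 months and -0.02 at 7 months. Lymphocyte markers gave 1 positive and 1 negative interaction of 6 at an unadjusted p under 0.05 (33.3% of the list against 16.1% of all autosomal genes). These were *Ighm* (immunoglobulin mu; -0.56 at 2 months and 0.59 at 7 months) and *Cd8a* (0.04 at 2 months and -0.73 at 7 months). *Trac* (T cell receptor alpha) had -0.25 at 2 months and 0.19 at 7 months. The mean expression of *Cd8a* was 12.14 and that of *Trac* 15.46, both near the minimum of 10. Red blood cell genes gave none of 4 past an unadjusted p of 0.05. The interactions of *Hba-a1* and *Hba-a2* (near-identical alpha globin copies, hence uncertain) were 0.96 and 0.69, and both changed sign under other settings.

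Melanotroph genes, covering *Pomc* processing, secretory granules and lineage factors, had a median difference of -0.13 at 2 months and 0.41 at 7 months, and the median interaction was 0.49 over 20 tested genes. Interactions passed an unadjusted p of 0.05 for 8 positive and 2 negative genes (50% of the list against 16.1% of all autosomal genes), and 4 genes were higher and 2 lower in p27-/- at 7 months by limma adjusted p (8.54% and 10.6% of all autosomal genes). With *Xist* in the fit 3 positive and 1 negative interaction passed (20% against 9.70% of all autosomal genes), and after the GC correction 6 and 1 (35% against 14.0%). *Scg2* (secretogranin II, a granule protein) read 13.86, 13.54 and 13.79 in the WT IL and 13.15 and 13.16 in the p27-/- IL at 2 months. At 7 months *Scg2* read 12.92 and 12.84 against 13.51, 13.61 and 13.17. It was below WT at 2 months and above WT at 7 months, with an interaction of 1.12 ± 0.27 (SE), unadjusted p = 0.001, adjusted p = 0.112. *Scg5*, the chaperone of the prohormone convertase PC2, had differences of -0.28 at 2 months and 0.55 at 7 months and an interaction of 0.83 ± 0.24 (SE), and *Tnxb* (tenascin XB) had 0.09 at 2 months and -1.0 at 7 months and -1.08 ± 0.27 (SE). *Scg5* was higher (limma adjusted p = 0.0384) and *Tnxb* lower (limma adjusted p = 0.00417) in p27-/- at 7 months. *Pomc* had an interaction of 0.31 ± 0.45 (SE), unadjusted p = 0.499, adjusted p = 0.77. Its value depended on the setting, at -1.04 after quantile normalisation, 0.91 with *Xist* in the fit and 1.11 with GC and *Xist* (unadjusted p = 0.00657). *Tbx19* (T-pit, the activator of *Pomc*) had -0.18 ± 0.25 (SE), turning to 0.14 with *Xist*. *Pax7* had -0.51 ± 0.20 (SE), unadjusted p = 0.0246, adjusted p = 0.239, and an unadjusted p of 0.165 with *Xist*.

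Receptors and channels of melanotrophs, which carry the dopamine, GABA and glutamate inputs to the lobe, had interactions of both signs. Their median difference over 26 tested genes was 0.10 at 2 months and -0.14 at 7 months, and the median interaction was -0.17, with 2 positive and 6 negative interactions at an unadjusted p under 0.05 (30.8% of the list against 16.1%). *Gabra2*, a GABA-A receptor subunit, read 9.11, 9.29 and 10.08 in the WT IL and 9.27 and 9.33 in the p27-/- IL at 2 months. At 7 months *Gabra2* read 8.72 and 9.52 against 10.07, 10.71 and 11.21. It was higher in p27-/- at 7 months (limma adjusted p = 0.0066), with an interaction of 1.74 ± 0.45 (SE), unadjusted p = 0.00168, adjusted p = 0.122. *Grin1*, the obligatory NMDA receptor subunit, had -0.09 at 2 months and -1.01 at 7 months, with an interaction of -0.92 ± 0.24 (SE). *Grin1* was lower in p27-/- at 7 months (limma adjusted p = 0.00228).

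**Figure D4:**
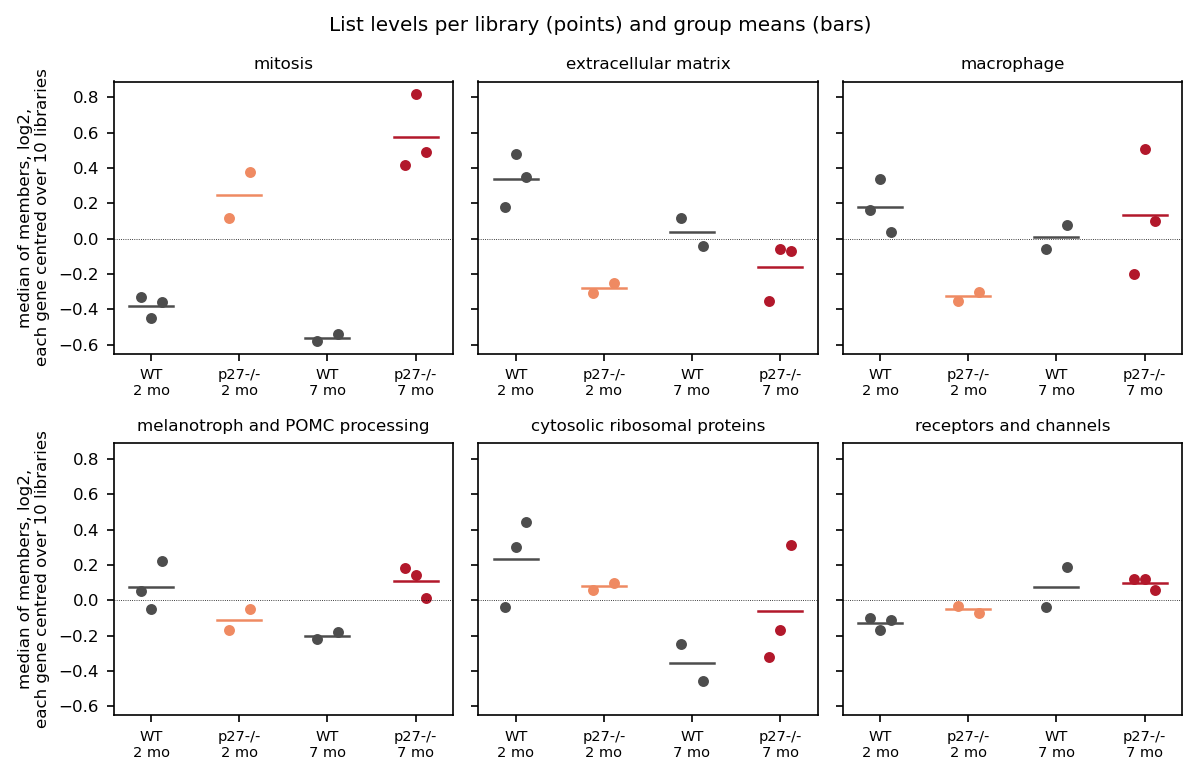
Median over the members of 6 gene lists in each library (points; y axis, log2, each gene centred on its mean over the 10 libraries), with group means as bars. Mitosis separates the genotypes at both ages, whereas the extracellular matrix and macrophage lists lie lower in p27-/- at 2 months, and at 7 months the macrophage list overlaps between the genotypes.

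Stem cell genes had a median difference of -0.47 at 2 months and -0.37 at 7 months, and the median interaction was 0.18 over 26 tested genes, with 4 positive and 3 negative interactions at an unadjusted p under 0.05 (26.9% of the list against 16.1%). With *Xist* in the fit the median interaction was -0.12. There 0 positive and 1 negative interaction of the 26 passed, while 9.70% of all autosomal genes did. *Sox2*, a factor of the stem cells that melanotrophs also express, so that its value in whole lobe covers both, read 7.75, 7.41 and 7.26 in the WT IL and 7.11 and 7.11 in the p27-/- IL at 2 months. At 7 months *Sox2* read 6.97 and 6.58 against 7.11, 6.68 and 7.03. Its genotypes overlapped at 7 months, and its interaction was 0.53 ± 0.29 (SE), unadjusted p = 0.0889, adjusted p = 0.381. *Sox9*, another marker of the stem cells, had differences of -0.90 at 2 months and -0.95 at 7 months and an interaction of -0.05 ± 0.30 (SE), that is, nearly the same difference at both ages. *Sox9* was lower in p27-/- at 7 months (limma adjusted p = 0.00972). The 3 members with the smallest interaction p were *Wwtr1* (TAZ, a Hippo pathway effector), with -0.33 at 2 months and 0.57 at 7 months, *Vim* (vimentin), with -1.05 at 2 months and 0.27 at 7 months, and *Nes* (nestin), with -1.26 at 2 months and -0.25 at 7 months. *Vim* read 7.34, 7.46 and 7.66 in the WT IL and 6.50 and 6.38 in the p27-/- IL at 2 months. At 7 months *Vim* read 7.39 and 6.72 against 7.09, 7.89 and 7.0, so the p27-/- libraries were the lowest at 2 months and overlapped WT at 7 months. *Nes* was lower in p27-/- at 2 months (limma adjusted p = 0.0398), with an interaction of 1.01 ± 0.30 (SE). Notch pathway genes had a median difference of -0.31 at 2 months and -0.43 at 7 months, and the median interaction was 0.02 over 15 genes. *Dtx1*, a regulator of Notch, with -0.31 at 2 months and -1.23 at 7 months, held the only interaction of that list past an unadjusted p of 0.05 (6.67% of the list against 16.1%). It was lower in p27-/- at 7 months (limma adjusted p = 0.00132). The ligands *Dll1* and *Jag1* came next, with interactions of 0.51 and 0.44.

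The next lists gave shares of interactions at an unadjusted p under 0.05 on both sides of the 16.1% of all autosomal genes, namely 28.6% of oestrogen-responsive genes, 22.7% of immediate early genes, 18.5% of cytoskeleton and adhesion genes, 13% of HIF-1 targets and 9.52% of interferon response genes. Cytoskeleton and adhesion genes had a median difference of -0.27 at 2 months and -0.25 at 7 months, and the median interaction was -0.04 over 27 genes, with 2 positive and 3 negative interactions at an unadjusted p under 0.05. *Rock1*, the kinase downstream of RhoA, had 0.31 at 2 months and 1.24 at 7 months, and the focal adhesion genes *Pxn* (paxillin) and *Tln1* (talin) had -0.29 at 2 months and -1.14 at 7 months and -0.16 at 2 months and -0.79 at 7 months. *Rock1* was higher and *Pxn* and *Tln1* were lower in p27-/- at 7 months (limma adjusted p = 0.00205, 0.00415 and 0.00585). HIF-1 targets had a median difference of -0.23 at 2 months and -0.08 at 7 months, and the median interaction was 0.09 over 23 genes, with 3 positive interactions, those of *Egln3* (a prolyl hydroxylase; -0.47 at 2 months and 0.61 at 7 months), *Hk2* (hexokinase 2; -0.24 at 2 months and 0.66 at 7 months) and *Vegfa* (-0.73 at 2 months and 0.28 at 7 months). At 2 months *Vegfa* read 7.28, 8.34 and 6.92 in the WT IL and 7.01 and 6.56 in the p27-/- IL. Its genotypes overlapped there, and WT replicate 2 enlarged the mean difference. Immediate early genes had a median difference of -0.08 at 2 months and -0.37 at 7 months, and the median interaction was -0.28 over 22 genes, with 2 positive and 3 negative interactions. *Egr1* read 10.29, 9.42 and 11.71 in the WT IL and 11.62 and 11.91 in the p27-/- IL at 2 months. At 7 months *Egr1* read 9.94 and 9.45 against 8.17, 9.97 and 9.29. Its WT libraries at 2 months alone ran from 9.42 to 11.71. *Junb* and *Ctgf* had differences of 0.30 at 2 months and -0.98 at 7 months, and of -0.86 at 2 months and 0.27 at 7 months. Interferon response genes had a median difference of -0.29 at 2 months and -0.17 at 7 months, and the median interaction was 0.12 over 21 genes. *B2m* (the light chain of MHC class I) had -0.73 at 2 months and 0.40 at 7 months, *Mx1* -0.49 at 2 months and 0.52 at 7 months and *Rsad2* (viperin) -1.13 at 2 months and -0.35 at 7 months, the last with an interaction of 0.78 ± 0.42 (SE), unadjusted p = 0.0806, adjusted p = 0.368. Oestrogen-responsive pituitary genes, relevant because of the sex difference among libraries, had a median difference of 0.01 at 2 months and -0.42 at 7 months, and the median interaction was -0.18 over 14 genes, with 3 positive and 1 negative interaction. *Igf1* had -0.56 at 2 months and 0.37 at 7 months, and *Cish*, a suppressor of cytokine signalling, had -0.30 at 2 months and -1.22 at 7 months.

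Ribosomal protein genes leaned to positive interactions. Their median difference over 40 tested genes was -0.13 at 2 months and 0.29 at 7 months, and the median interaction was 0.42, with positive interactions in 34 of 40 and 10 past an unadjusted p of 0.05, none negative (25% of the list against 8.23% of all autosomal genes). At 7 months 8 were higher in p27-/- by limma adjusted p (8.54% of all autosomal genes). *Rps23* read 7.94, 8.60 and 9.05 in the WT IL and 8.05 and 8.28 in the p27-/- IL at 2 months. At 7 months *Rps23* read 7.65 and 7.45 against 8.52, 8.35 and 8.93, with an interaction of 1.41 ± 0.37 (SE), unadjusted p = 0.00162, adjusted p = 0.122. *Rpl23* and *Rps24* had interactions of 1.17 ± 0.35 (SE) and 1.07 ± 0.33 (SE). From 2 to 7 months their median change was -0.58 in WT against -0.17 in p27-/-. The median interaction was 0.48 after the GC correction, 0.93 with *Xist* in the fit and 0.25 at equal totals. Many ribosomal protein genes have processed copies in the genome, which makes single values uncertain.

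Nuclear genes of oxidative phosphorylation had a median difference of -0.16 at 2 months and -0.02 at 7 months, and the median interaction was 0.20 over 45 genes. The 3 positive interactions at an unadjusted p under 0.05 were 6.67% of the list, below the 8.23% of all autosomal genes. These were *Uqcrb* (a complex III subunit; -0.47 at 2 months and 1.0 at 7 months), *Cycs* (cytochrome c; -0.12 at 2 months and 0.72 at 7 months) and *Ndufa4* (-0.56 at 2 months and 0.43 at 7 months). The share depended on the setting. With *Xist* in the fit 10 of the 45 passed, all positive, and the median interaction was 0.57, while 9.70% of all autosomal genes passed in either direction. After the GC correction 6 passed, all positive, with a median of 0.23, against 14.0% of all autosomal genes. At equal totals the median was 0.02. Genes that maintain and express mitochondrial DNA had a median difference of -0.02 at 2 months and 0.05 at 7 months, and the median interaction was 0.07 over 32 genes. *Lars2*, the mitochondrial leucyl-tRNA synthetase, read 12.76, 12.96 and 12.68 in the WT IL and 11.73 and 12.02 in the p27-/- IL at 2 months. At 7 months *Lars2* read 13.42 and 12.85 against 10.05, 10.72 and 11.32. It was lower in p27-/- at 7 months (limma adjusted p = 0.000367), with an interaction of -1.51 ± 0.40 (SE), unadjusted p = 0.00193, adjusted p = 0.123. *Mrps22*, of the mitochondrial ribosome, had -0.05 at 2 months and 0.53 at 7 months, and *1810035L17Rik* (now *Slirp*, which stabilises mitochondrial messengers) had -0.26 at 2 months and 0.48 at 7 months. The 13 mitochondrially encoded protein genes are not autosomal and were read beside these. Their median difference was -0.08 at 2 months and 2.11 at 7 months with a median interaction of 2.21. By limma 12 of 13 interactions passed an unadjusted p of 0.05, against 16.2% of all genes tested, but none an adjusted one. Genes of protein folding and stress in the endoplasmic reticulum had a median difference of -0.20 at 2 months and 0.02 at 7 months, and the median interaction was 0.23 over 24 genes, with 4 positive and 1 negative interaction (20.8% of the list against 16.1%). The chaperones *Pdia3*, *Hsp90b1* and *Dnajb9* had interactions of 0.86 ± 0.28 (SE), 0.78 ± 0.28 (SE) and 1.0 ± 0.38 (SE), and the first pair were higher in p27-/- at 7 months (limma adjusted p = 0.0215 and 0.0334).

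Of the 82 named genes with an unadjusted interaction p under 0.05, 10 no longer passed after the GC correction and 35 with *Xist* in the fit. Among the 25 of them named for their class or their smallest p, the GC correction took none, and *Xist* took 5, namely *Luzp2*, *Slc4a4*, *Adamts1*, *Serpine2* and *Ung*. Their unadjusted p from limma was then 0.241, 0.113, 0.0697, 0.0781 and 0.1, in that order. With *Xist* in the fit, the unadjusted interaction p from limma was 0.0037 for *Cenpf*, 0.000903 for *Gabra2*, 0.00656 for *Col3a1*, 0.0134 for *Sparc*, 0.0254 for *Spp1*, 0.0298 for *Scg2* and 0.0325 for *Cdkn1b*. It was 0.1 for *Ccnd1*, 0.109 for *Vim*, 0.0934 for *Nes* and 0.161 for *Lars2*, which no longer passed 0.05, while all 4 had an unadjusted p of at most 0.00474 after the GC correction.

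**Figure D5:**
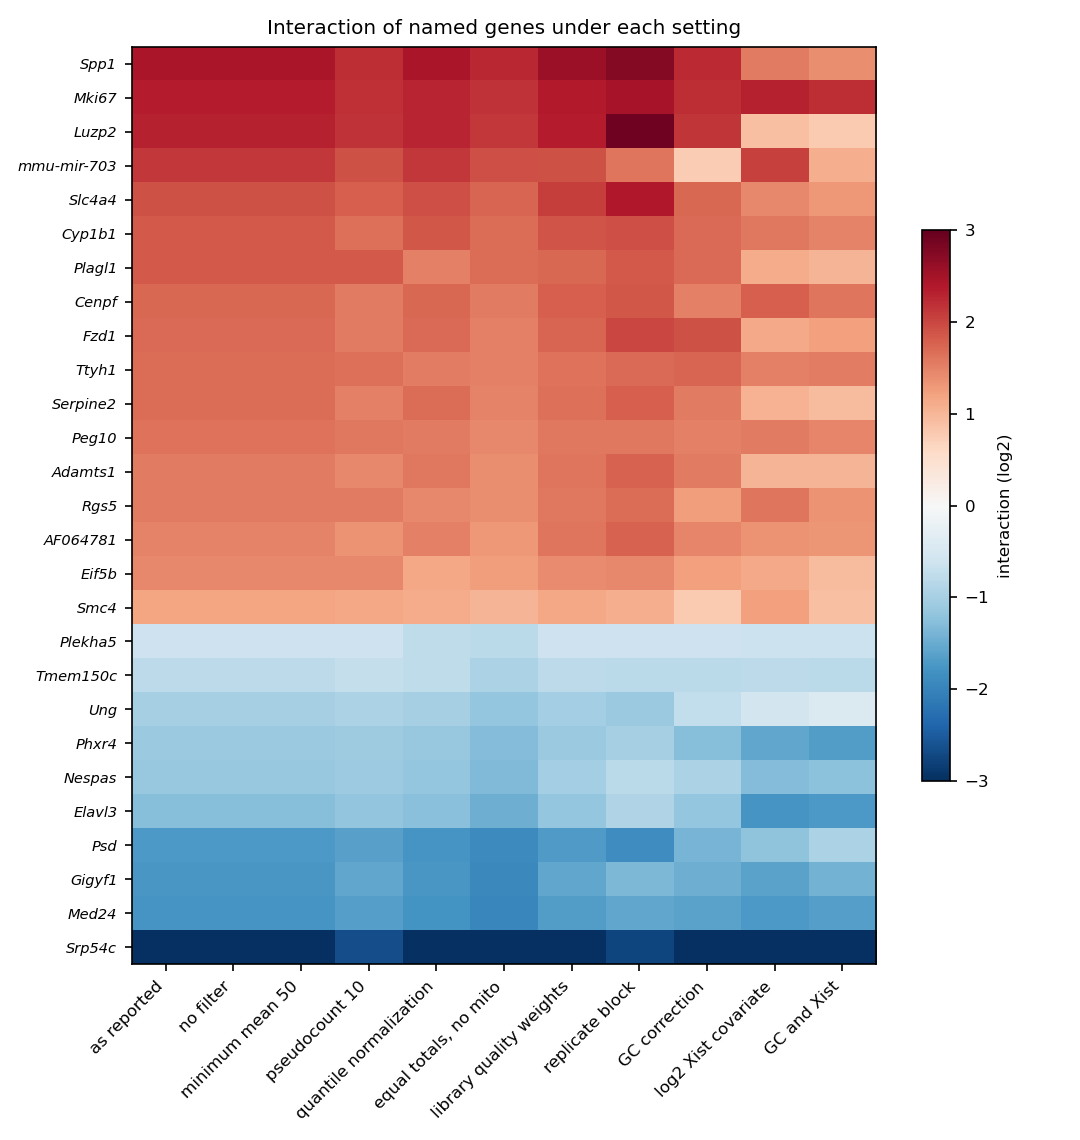
Interaction (colour, log2, clipped at -3 and 3) of 27 named genes (rows, ordered by value) as reported and under 10 other settings (columns), including libraries scaled to equal totals without mitochondrially encoded genes (equal totals, no mito). Each gene kept its sign in every column, and among the *Xist* columns *Ung* came nearest to 0.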

How the data were processed

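Total RNA from dissected mouse IL was amplified with the Ovation RNA-seq V2 kit and sequenced in 10 libraries. Per the labels, the authors aligned reads with STAR 2.5.2a, estimated gene abundances with RSEM 1.3.30 on GRCm38 and normalised with DESeq2 1.18.1. The deposited table holds log2 normalised values (-1.90 to 22.14 over 39021 gene identifiers). The transform is not named in the sources used here, and the values do not give whole reads, so sequencing depth is unknown, no count test was run and only replicate spread sets the precision. A transform that shrinks low values would understate their fold changes. Its columns were matched to samples by name, with none left over.

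From the values, genes with a mean of the back-transformed value of at least 10 (16556 genes) were fitted with limma 3.58.1 in R 4.3.3, with 1 coefficient per group, a mean-variance trend, 6 residual and 8.7 prior degrees of freedom, and Benjamini-Hochberg adjustment over all genes tested. The groups and their replicates came from the labels, and the study states that replicates were biological. Interaction and both genotype differences came from this 1 fit. Chromosomes came from GENCODE M1 by gene identifier, which gave none for 2384 of the genes tested. Coordinates and promoters came from RefSeq (GRCm38.p6) by symbol. The members and the 25 gene lists were chosen with earlier results of these data known.

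Named genes are, for each class and sign of the interaction, up to 4 with the largest interaction at an unadjusted p under 0.01, a mean of at least 100 and no overlap of the genotypes at the age with the larger difference (no predicted models), the 5 with the smallest p, up to 3 of each list with the smallest p, and 8 further genes of the cell cycle, stem cell compartment and lineage besides *Mki67*. Some genes that the rule chose are not reported here. The fit recovered simulated interactions as given above (200 of 16556 genes per size). Alternatives changed the filter, pseudocount, normalisation, library weights, trend, replicate block, GC content (14172 genes, 85.6% of those tested) and *Xist*, and left out each library in turn.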

Additional observations from a re-analysis of the deposited data

How the results depend on the processing

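The number of autosomal genes with an interaction past an adjusted p of 0.05 was 0 under 11 of 13 settings that kept every library, 2 at equal totals without mitochondrially encoded genes and 26 with library quality weights, and 0 to 32 with 1 library left out. It was 0 without WT replicate 1 at 7 months, WT replicate 3 at 2 months or either p27-/- library at 2 months, and highest, 32, without p27-/- replicate 3 at 7 months. At an unadjusted p under 0.05 the count was 1321 with *Xist* in the fit and 1251 (without WT replicate 1 at 7 months) to 2551 with 1 library left out. The genotype difference at 2 months gave 2 genes with no filter, 15 adjusted over autosomal genes only, 10 with a pseudocount of 10, 6 after quantile normalisation, 358 with weights, 2 without the trend, 4 with *Xist*, 8 after the GC correction, 2 with both, and 1 (without p27-/- replicate 1 at 2 months) to 47 with 1 library left out. At 7 months it gave 1333 with no filter, 1057 with *Xist*, 1013 after the GC correction, 422 with both, and 113 (without WT replicate 1 at 7 months) to 2918. The causes were not tested.

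Of 98 named genes, 1238 of 1257 interactions under settings that kept every library and 945 of 980 with 1 left out had the same sign and side of the adjusted threshold. Signs turned for *Ccnd2* (-0.09 with *Xist*, -0.12 with GC and *Xist*), *Pomc* (-1.04, quantile), *Tbx19* (0.14 with *Xist*, 0.16 with both) and *Sox9* (0.01, weights). With 1 library left out the values ran from -0.63 to 2.55 for *Hba-a1*, -0.21 to 1.59 for *Hba-a2* and -0.43 to 0.33 for *Sox9*. Of 249 list medians, 180 moved by less than the spread between replicates.

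Replicate numbers gave no sign of a pairing, since deviations of same-numbered libraries correlated at -0.181 to 0.1202 and those of differently numbered ones at -0.2615 to 0.2615. In a group of 2 libraries the deviations mirror each other, so the check cannot exclude a pairing. With the replicate number as a block, 0 interactions passed, 1740 had an unadjusted p under 0.05, and the genotype difference called 17 genes at 2 months and 2111 at 7 months. The block turned *Hba-a1* to -0.80, *Hba-a2* to -0.90 and *Sox9* to 0.15. Groups of 2 and 3 libraries of unknown depth limit the precision, and in WT age and sex cannot be told apart.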

Other observations

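Imprinted genes, which are expressed from 1 parental allele, were looked at after *Peg10* and *Plagl1* had appeared among the genes above, so their list was chosen after values were seen and carries no test. Of 22 tested genes 19 had a positive interaction, with a median genotype difference of -0.08 at 2 months and 0.23 at 7 months, and the median interaction was 0.37, beside a median interaction of 0.020 over all autosomal genes. At 7 months 8 were higher and 1 was lower in p27-/- at a limma adjusted p under 0.05 (8.54% and 10.6% of all autosomal genes). *Mest*, which encodes a hydrolase of mesodermal tissue, read 12.02, 12.69 and 12.98 in the WT IL and 12.17 and 12.32 in the p27-/- IL at 2 months, and 11.57 and 11.56 against 12.77, 12.68 and 13.03 at 7 months. Its genotypes overlapped at 2 months and were apart at 7 months, with an interaction of 1.58 ± 0.33 (SE), unadjusted p = 0.000253, adjusted p = 0.0952 by limma. *Ndn* (necdin) had differences of -0.09 at 2 months and 0.89 at 7 months, and *Ube3a* (a ubiquitin ligase) of 0.29 at 2 months and 1.05 at 7 months. *Gnas*, which encodes the stimulatory G protein subunit, had -0.07 at 2 months and -0.98 at 7 months and was the one lower at 7 months. The median interaction of the list was 0.38 after the GC correction, 0.29 with *Xist* in the fit and 0.19 at equal totals.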
